A study of Mus musculus with 8 samples.

Results

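Ly6a, Anxa1, Anxa3, Clu, Ccn1, Ccn2, Il1rn, Areg and Ereg are genes that injured or fetal-like gut epithelium is known to switch on, and they were followed here in the unchallenged epithelium of mouse cecum and colon. The 9 genes were taken by symbol from the 33696 genes of the deposited gene table. All 9 symbols were found, with the identifiers ENSMUSG00000075602 (Ly6a), ENSMUSG00000024659 (Anxa1), ENSMUSG00000029484 (Anxa3), ENSMUSG00000022037 (Clu), ENSMUSG00000028195 (Ccn1), ENSMUSG00000019997 (Ccn2), ENSMUSG00000026981 (Il1rn), ENSMUSG00000029378 (Areg) and ENSMUSG00000029377 (Ereg). Single-cell RNA-seq had been made from sorted epithelial cells (EPCAM+ and CD45-, with CD44+ and CD44- cells mixed at 1:1) of mice that were germ-free (GF), given antibiotics (Abx) or kept as controls (Ctrl). The deposited cell table names the loaded samples by tissue, condition and a number from 1 to 4. Compared here were cecum Ctrl, cecum Abx_4D, cecum Abx_14D, cecum GF, colon Abx_14D and colon GF. The labels give no strain, sex or age, name no antibiotic and do not say what 4D and 14D stand for. Cells were pooled by condition before sorting, so the numbered samples of a group may be portions of 1 pool. The p-values below reflect differences among loaded samples alone, which could be technical in part.

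After damage, the gut lining is rebuilt by cells that leave their usual program for one that resembles the fetal gut. Ly6a (Sca-1), a small surface protein anchored by a lipid, and the phospholipid-binding annexins Anxa1 and Anxa3 mark that state, and Clu, a secreted chaperone, marks rare revival stem cells. Ccn1 and Ccn2 are matricellular proteins and classic targets of YAP and TEAD, the factors at the end of the Hippo pathway. Areg and Ereg, amphiregulin and epiregulin, are ligands of the EGF receptor, and Il1rn encodes the antagonist that keeps interleukin-1 off its receptor. Anxa1 protein also limits inflammation through formyl peptide receptors, and Ly6a is known as an interferon-responsive gene in several tissues.

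Promoters of Anxa1, Areg and Ccn1 are shown because Anxa1 rose and, in GF, Areg fell in the same cecal cells, and Ccn1 is the textbook YAP target. RefSeq promoter windows (GRCm38.p6) were found for 4 of the 9 genes. Shown are the 250 bases before the annotated start, 5′ to 3′ along the gene, with capitals marking matches to the TEAD motif GGAATG (either strand), the AP-1 motif TGANTCA or the cyclic AMP response element TGACGTCA. None of the capitals overlap another match.
Anxa1 (chr19:20390672-20390921, minus strand): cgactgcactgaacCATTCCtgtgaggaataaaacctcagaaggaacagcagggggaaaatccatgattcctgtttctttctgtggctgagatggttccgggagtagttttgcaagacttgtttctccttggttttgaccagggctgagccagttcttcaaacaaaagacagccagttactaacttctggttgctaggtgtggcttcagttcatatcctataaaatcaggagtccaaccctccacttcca
Areg (chr5:91139349-91139598, plus strand): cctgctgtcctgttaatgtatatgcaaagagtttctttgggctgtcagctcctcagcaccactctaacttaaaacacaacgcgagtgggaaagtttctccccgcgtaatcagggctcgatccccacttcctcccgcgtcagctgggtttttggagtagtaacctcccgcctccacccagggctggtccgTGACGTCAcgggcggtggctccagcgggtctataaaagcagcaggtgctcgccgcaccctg
Ccn1 (chr3:145649986-145650235, minus strand): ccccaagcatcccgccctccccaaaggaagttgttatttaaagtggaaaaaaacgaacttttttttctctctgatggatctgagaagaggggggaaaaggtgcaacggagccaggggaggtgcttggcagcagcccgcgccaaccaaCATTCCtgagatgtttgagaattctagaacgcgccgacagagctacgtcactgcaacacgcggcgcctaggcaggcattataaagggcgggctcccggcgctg
The Areg window held 1 match to the cyclic AMP response element, 61 to 54 bases before the start. The Ccn1 window held 1 TEAD match, 103 to 98 bases before the start, and the Anxa1 window 1 TEAD match, 236 to 231 bases before it. Il1rn, the other gene with windows, is not shown. An AP-1 match lay 141 to 135 bases before the start in 1 of its windows. Another held a TEAD match, 24 to 19 bases before the start, and a further window held no match. Of 32851 promoter windows of this length, 12.6% held the TEAD letters, 6.75% the AP-1 letters and 1.55% the response element. These matches describe letters and were not read as sites.

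Levels are given as CPM, the transcripts of a gene scaled to the total transcripts of 1 cell class in 1 loaded sample. Cells with at least 500 transcripts were kept, 15916 in all, and the groups compared held between 1330 (cecum Ctrl) and 4215 (colon GF) of them. Cells were assigned to a class by gates on markers that include none of the 9 genes: absorptive cells on colonocyte markers such as Slc26a3 and Krt20, crypt cells on stem and proliferation markers, and goblet, tuft and enteroendocrine cells on their own. A sample entered a class with at least 20 cells, which left 3 cecal Ctrl, 3 cecal Abx_4D and 3 colon GF samples for absorptive cells and 4 elsewhere in the absorptive and crypt classes. The median absorptive score was lower in colon (1.16 in both groups) than in cecum (1.58 to 1.86). The class took in 3.32 to 3.40% of colon cells and 12.8 to 26.3% of cecal cells. Whether this reflects less mature cells or markers that differ by region was not tested. The 10 immune markers summed to at most 8.85 CPM in absorptive and 9.55 CPM in crypt samples: Cd3g was at 0 in both, while Ptprc was found in 1 of 21 absorptive and 15 of 24 crypt samples (at most 4.09 CPM) and Itgam in 13 and 23 (at most 5.68 CPM). The 10 stromal and endothelial markers summed to 5.52 to 40.2 CPM in absorptive and 3.34 to 18.9 CPM in crypt samples: Col3a1 was at 0 in both, Pdgfrb and Pecam1 reached 26.8 and 14.7 CPM, and Lum reached 11.8 CPM in 1 absorptive sample. The part of such cells in the results was not tested. In 4 cecal samples (Abx_4D 2, Abx_14D 3 and 4, GF 4) the median mitochondrial share was over 0.5%, and calls that changed without them are given beside the result. Differences were tested with edgeR's quasi-likelihood test over all genes, with Benjamini-Hochberg adjustment, and a gene was called at an adjusted p under 0.05. Fewer cells with the transcript and less of it per cell cannot be told apart in these sums.

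Each gene had its own distribution over the cell classes. Summed over the cecal groups, Ly6a stood at 22.1 CPM in absorptive cells against 4.29 in crypt and 6.19 in goblet cells. In the colon Ly6a stood at 60.7 CPM in absorptive cells and 3.13 in crypt cells. These sums are carried by the groups with high levels. By group means over samples, cecal Ly6a stood at 93.0 CPM in absorptive against 14.9 in goblet cells of Ctrl, but at 5.80 against 6.48 in Abx_14D and 1.45 against 1.31 in GF. Anxa1 was highest in tuft cells of the cecum, with 161 CPM (95% Poisson interval 130 to 198, 42 cells), and stood at 63.2 CPM in cecal absorptive cells. In the colon Anxa1 reached 93.5 CPM in tuft cells and 87.9 CPM in absorptive cells, and 29.7 CPM in crypt cells. Anxa3 divided the tissues: it stood at 77.3 CPM in colon goblet cells and 68.7 CPM in colon absorptive cells, against 14.9 and 2.48 CPM in the same cecal classes. Ccn1 had the opposite cell pattern to Ly6a, with 47.4 CPM in cecal goblet and 38.9 CPM in cecal crypt cells and 3.11 CPM in absorptive cells. Clu was low in every class, at 8.22 CPM in cecal and 16.3 CPM in colon crypt cells and at most 8.82 CPM in each of the other classes. Areg stood at 174 CPM in absorptive, 98.7 in crypt, 66.7 in goblet and 5.15 in tuft cells of the cecum. That order was not kept in each group: the means in absorptive and crypt cells were 294 and 117 CPM in Ctrl, 91.0 and 92.8 in Abx_4D, and 62.4 and 78.7 in GF. Ereg, its neighbor among the ligands, stood at 11.6 CPM in cecal and 11.4 CPM in colon crypt cells. Ccn2 gave 27 transcripts in 3301 cecal crypt cells and 59 in 5220 colon crypt cells, and none in the 1431 cecal and 271 colon absorptive cells, so it was not tested. These sums weight samples by their cells and the intervals cover counting error only.

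**Figure D1:**
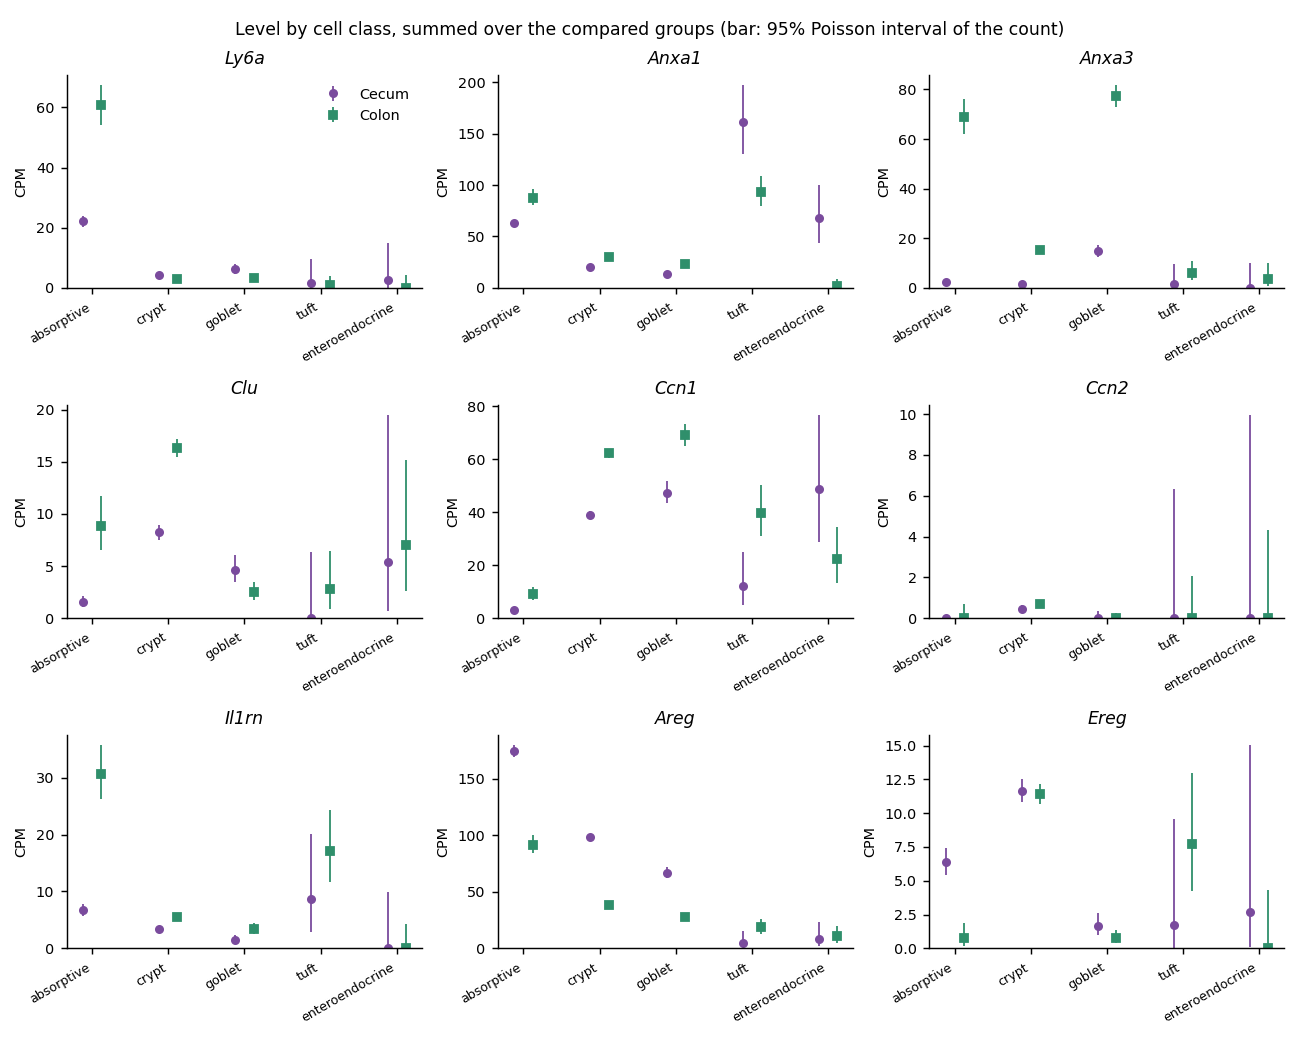
CPM of each gene (vertical axis) in 5 cell classes (horizontal axis), summed over the 4 cecal groups (circles) or the 2 colon groups (squares), with 95% Poisson intervals of the count as bars. In these sums Ly6a is high in absorptive cells, and Ccn1 and Clu are lower there than in crypt cells. Anxa3 is higher in colon than in cecum in absorptive, crypt and goblet cells, and low in tuft and enteroendocrine cells of both.

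Against Ctrl, cecal absorptive cells answer how these genes stand when the microbiota is depleted or absent. Ly6a was lower in all 3 other groups and Anxa1 was higher in all 3. Of the 2 EGF receptor ligands, Ereg was called lower in all 3 and Areg in GF alone. Of the 5 genes that passed the low-count filter, 1 was called higher and 2 lower in Abx_4D, 1 and 2 in Abx_14D, and 1 and 3 in GF. Of all 9464 genes tested, the called share was 2.85% (Abx_4D), 6.43% (Abx_14D) and 11.5% (GF). The median log2 fold change of the 5 genes was -1.58, -0.65 and -1.74, beside 0.07, 0.12 and 0.15 over all genes. The 3 comparisons share the Ctrl samples.

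Ly6a stood at 111, 59.0 and 109 CPM in the 3 Ctrl samples. It stood at 47.2, 23.9 and 14.6 CPM in Abx_4D and at 5.52, 3.96, 6.22 and 7.52 CPM in Abx_14D. In GF it stood at 0, 2.89, 1.63 and 1.29 CPM. Every Ctrl sample was above every sample of the other groups, and each GF sample was below each Abx_14D sample. Ly6a fell by 1.88 ± 0.36 (SE) on the log2 scale in Abx_4D (adjusted p = 0.0035), by 3.88 ± 0.35 in Abx_14D (adjusted p = 1.2e-07) and by 5.79 ± 0.44 in GF (adjusted p = 5.6e-09). Without Ctrl sample 4 the Abx_4D difference was -1.68 (adjusted p = 0.051). Ly6a has close paralogs, and the handling of reads they share is not given in the sources used here, so its level is uncertain to that extent. The summed level of 16 interferon-induced genes was 641 to 1116 CPM (Ctrl), 1381 to 2015 CPM (Abx_4D), 595 to 1592 CPM (Abx_14D) and 161 to 200.1 CPM (GF). In Abx_4D and Ctrl those ranges lie in the opposite order to Ly6a, and in GF both are lowest; the part of the interferon genes in the Ly6a result was not tested.

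Anxa1 went the other way. Its levels were 11.7, 12.3 and 18.3 CPM in Ctrl and 20.6, 66.7 and 81.7 CPM in Abx_4D. They were 68.9, 57.0, 110.5 and 109 CPM in Abx_14D and 21.2, 41.4, 37.6 and 36.8 CPM in GF. Among samples with at least 20 cells, no Ctrl sample reached the lowest sample of any other group. Ctrl held 65 transcripts of Anxa1 in these samples and 72 with sample 1, which had 11 cells and 213078 transcripts in all. That sample lay above the lowest Abx_4D and GF samples, so the separation from those groups rests on the cut. Anxa1 rose by 2.05 ± 0.38 in Abx_4D (adjusted p = 0.0028), 2.57 ± 0.36 in Abx_14D (adjusted p = 4.8e-05) and 1.25 ± 0.37 in GF (adjusted p = 0.028). The GF call was lost without the samples of high mitochondrial share (1.22, adjusted p = 0.052) and when any of Ctrl 2, 3 or 4 or GF 2, 3 or 4 was left out (1.09 to 1.53, adjusted p = 0.056 to 0.17).

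Areg stood at 496, 208 and 177 CPM in Ctrl and at 64.9, 85.5 and 122 in Abx_4D. In Abx_14D it stood at 71.7, 119, 303 and 203 CPM, and in GF at 37.0, 41.4, 90.9 and 80.1. Among samples with at least 20 cells, only the Abx_14D samples overlapped Ctrl. Abx_4D held 326 transcripts of Areg in these samples and 357 with sample 2, which had 10 cells and 166384 transcripts in all. That sample lay above the lowest Ctrl sample, so the separation of Abx_4D from Ctrl rests on the cut. Areg fell by 2.10 ± 0.40 in GF (adjusted p = 0.00097); in Abx_4D the value was -1.58 ± 0.44 (adjusted p = 0.053), and in Abx_14D it was not called (adjusted p = 0.38). The Abx_4D difference was called with no filter on low counts (adjusted p = 4.2e-08), TMM normalization (0.045), at least 10 cells per sample (0.02), without the samples of high mitochondrial share (0.025) and without Ctrl 4 (0.043). It was not called with DESeq2, at least 1000 transcripts per cell, the stricter marker gate (adjusted p = 0.31) or the sample number as a block (adjusted p = 0.12). The summed level of 18 immediate early and dissociation genes was 2102 to 2438 CPM in Ctrl and 1065 to 1282 in GF, without overlap; its part in the Areg result was not tested. The 2 Abx_14D samples with high Areg, samples 3 and 4, were the 2 with mitochondrial medians of 0.597% and 0.655%. Their immediate early sum was 3049 and 2225 CPM, against 1289 and 1507 in samples 1 and 2. The part of these measures in the Areg level was not tested.

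Ereg, the less widely expressed ligand, stood at 40.8, 10.8 and 14.3 CPM in Ctrl. It stood at 0, 5.03 and 3.65 CPM in Abx_4D, at 2.37 to 4.62 in Abx_14D and at 3.53 to 6.54 in GF. All Ctrl samples were above all others. The differences were -2.24 ± 0.58 (adjusted p = 0.037), -2.24 ± 0.48 (adjusted p = 0.0049) and -1.74 ± 0.48 (adjusted p = 0.02). None of the 3 Ereg calls held under a stricter marker gate (-1.42, -1.21 and -0.98, adjusted p = 0.39, 0.24 and 0.29) or without the samples of high mitochondrial share (adjusted p = 0.058, 0.065 and 0.07). The Abx_4D call was also lost without any one of 5 samples (Abx_4D 1, 3 or 4, Ctrl 2 or 4; -2.67 to -1.72, adjusted p = 0.067 to 0.13), and the GF call without Ctrl 2 (-1.22, adjusted p = 0.11) or GF 4 (-1.71, adjusted p = 0.052). Il1rn, the interleukin-1 antagonist, was not called, with 8.56 ± 3.60 CPM (Ctrl, n = 3), 7.52 ± 6.20 (Abx_4D, n = 3), 6.03 ± 2.83 (Abx_14D, n = 4) and 3.89 ± 4.66 (GF, n = 4), each ± SD. Anxa3, Clu and Ccn1 were under the count filter in these cells. Anxa3 still stood at 7.37 ± 6.28 CPM in Ctrl and 0.348 ± 0.457 in GF, with no overlap between the samples. These levels came from 20 and 2 transcripts in all. In Ctrl sample 2, 1 of 25 cells held all 5 transcripts, so the separation of that sample from GF rests on 1 cell.

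**Figure D2:**
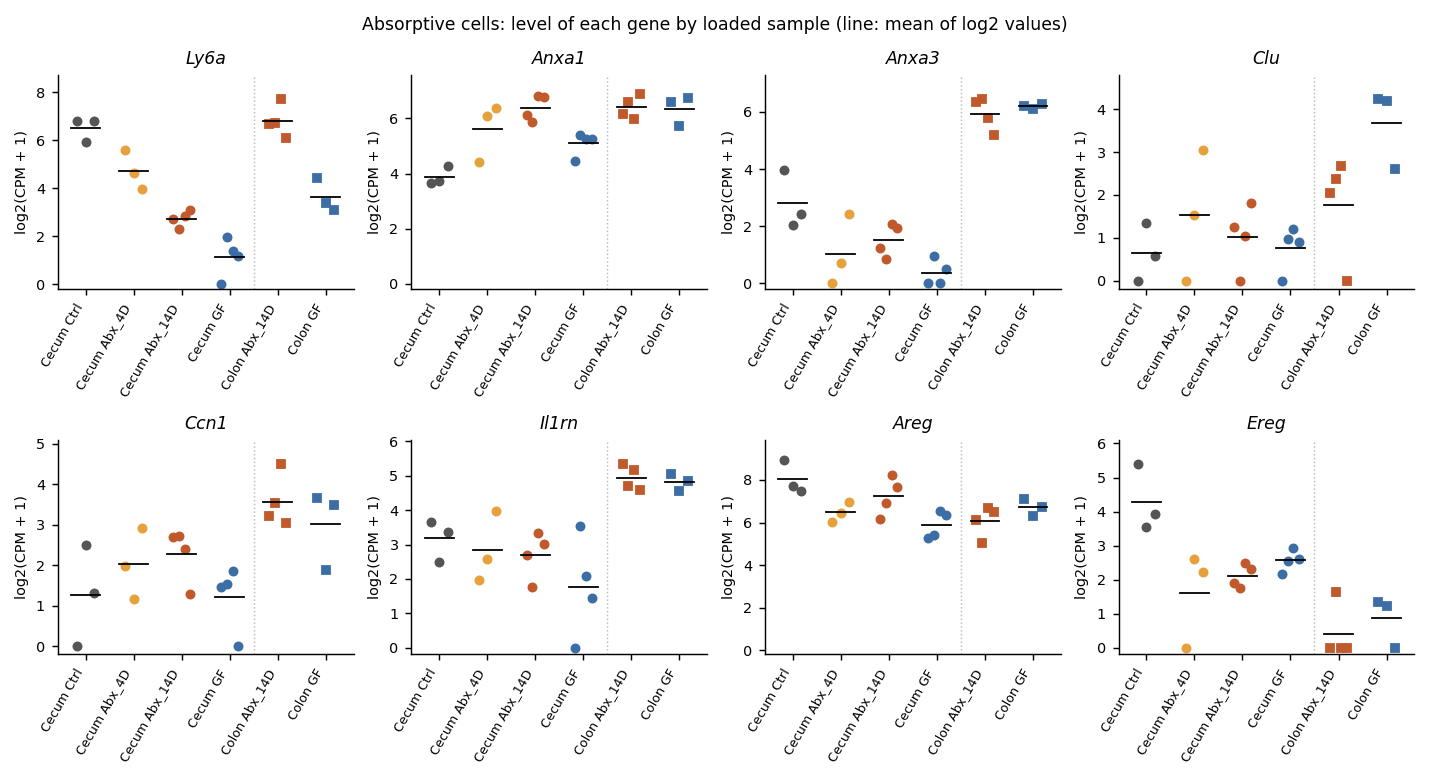
Absorptive cells: log2(CPM + 1) of 8 genes (vertical axis) in each loaded sample with at least 20 absorptive cells, by group (horizontal axis; circles cecum, squares colon, line the mean of the log2 values). Ly6a steps down from Ctrl to GF in the cecum and is high in colon Abx_14D, Anxa1 is lowest in cecal Ctrl, and Anxa3 and Il1rn are high in the colon.

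In cecal crypt cells, the pool of stem and dividing cells, Ly6a was the only one of the 8 tested genes that was called, in all 3 comparisons. The share of all 11967 genes that was called was 0.643% (Abx_4D), 2.76% (Abx_14D) and 4.95% (GF). The median of the 8 genes was -0.55, -0.93 and -0.67 on the log2 scale, beside 0.03, 0.03 and -0.01 over all genes. Ly6a stood at 17.7, 18.1, 6.23 and 21.98 CPM in Ctrl. Its other samples ranged from 1.82 to 4.12 CPM (Abx_4D), 1.39 to 2.44 CPM (Abx_14D) and 0.139 to 1.36 CPM (GF), all below Ctrl. It fell by 2.51 ± 0.42 (adjusted p = 0.0043), 2.97 ± 0.41 (adjusted p = 0.00019) and 4.78 ± 0.52 (adjusted p = 5.4e-06). The fall in crypt cells thus started from a Ctrl level that was lower than in absorptive cells, 16.0 ± 6.79 CPM (SD, n = 4) against 93.0 ± 29.5 (n = 3). The interferon-induced sum in crypt cells had medians of 364 (Ctrl), 314 (Abx_4D), 202 (Abx_14D) and 138 CPM (GF). These ranked as the Ly6a means did, and their part in the Ly6a result was not tested.

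Of the annexins, Anxa1 was not called in crypt cells. It stood at 16.1, 16.6, 41.4 and 17.5 CPM in Ctrl. It ranged from 11.4 to 21.5 CPM (Abx_4D), 17.4 to 26.8 CPM (Abx_14D) and 8.64 to 25.7 CPM (GF), and the groups overlapped. Anxa3 stood at 3.53, 4.90, 5.79 and 3.06 CPM in Ctrl, against 0.595 to 1.90 in Abx_14D and 0.726 to 1.36 in GF, with no overlap; its Ctrl mean was the highest of the 4 cecal groups in crypt and in absorptive cells. Its differences of -1.80 ± 0.63 and -2.0 ± 0.66 were not called (adjusted p = 0.16 and 0.09). In Abx_4D it was -1.37 ± 0.65 (adjusted p = 0.5), and without Abx_4D sample 1 it was -3.30 (adjusted p = 0.039).

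Clu, the revival stem cell marker, was spread unevenly over crypt cells: 37 of the 3301 cecal crypt cells with at least 5 transcripts held 63.2% of its 506 transcripts. Its sample levels were 22.2, 15.8, 17.4 and 2.23 CPM in Ctrl and 24.7, 3.22, 3.14 and 3.23 CPM in Abx_4D. They were 2.53, 6.34, 2.08 and 4.6 CPM in Abx_14D, and 15.0, 8.48, 8.64 and 10.9 CPM in GF. The 4 GF samples lay within the Ctrl range, and the Abx_14D samples lay below the GF samples without overlap. Single cells weighed on these levels. In GF sample 4, 3 of 120 cells held Clu, and 1 of them held 16 of the 24 transcripts. In Abx_14D samples 2 and 4, 1 cell held 15 of 32 and 11 of 17. The part of such cells in the separation was not tested. Against Ctrl the Abx_14D difference was -1.85 ± 0.63 (adjusted p = 0.15), and -2.26 (adjusted p = 0.035) without Ctrl sample 4. GF against Abx_14D gave 1.48 ± 0.62 (adjusted p = 0.39).

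Among the YAP targets, Ccn1 stood at 84.2, 32.05, 72.1 and 38.4 CPM in Ctrl crypt cells. In Abx_14D it stood at 20.3, 32.5, 23.9 and 41.95 CPM. The difference of -0.93 ± 0.30 was not called (adjusted p = 0.12), though it passed with DESeq2 (-0.96, adjusted p = 0.034). In Abx_4D and GF it stood at 27.6 to 49.4 and 26.0 to 50.4 CPM. Ccn2 did not exceed 2.64 CPM in any cecal crypt sample.

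Neither ligand was called in crypt cells. Areg stood at 117 ± 30.5 CPM (Ctrl), 92.8 ± 16.5 (Abx_4D), 111 ± 56.7 (Abx_14D) and 78.7 ± 19.0 (GF), as SD with n = 4 each. Its Abx_14D samples again split, with 64.5 and 59.6 CPM in samples 1 and 2 and 158 and 162 in samples 3 and 4. The immediate early sum split in the same way, at 2637 and 1807 against 3492 and 4044 CPM. Ereg stood at 17.5 ± 8.70 CPM in Ctrl and 9.43 ± 8.16 in Abx_14D, and without the samples of high mitochondrial share it was called lower in Abx_14D (-1.99, adjusted p = 0.046). Areg in GF was called with no filter on low counts (-0.57, adjusted p = 0.038). Il1rn stood at 5.95 ± 1.47 CPM in Ctrl and 2.17 ± 0.571 in GF, with no overlap (-1.44 ± 0.50, adjusted p = 0.11), and at 2.53 ± 1.81 in Abx_4D (adjusted p = 0.48).

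**Figure D3:**
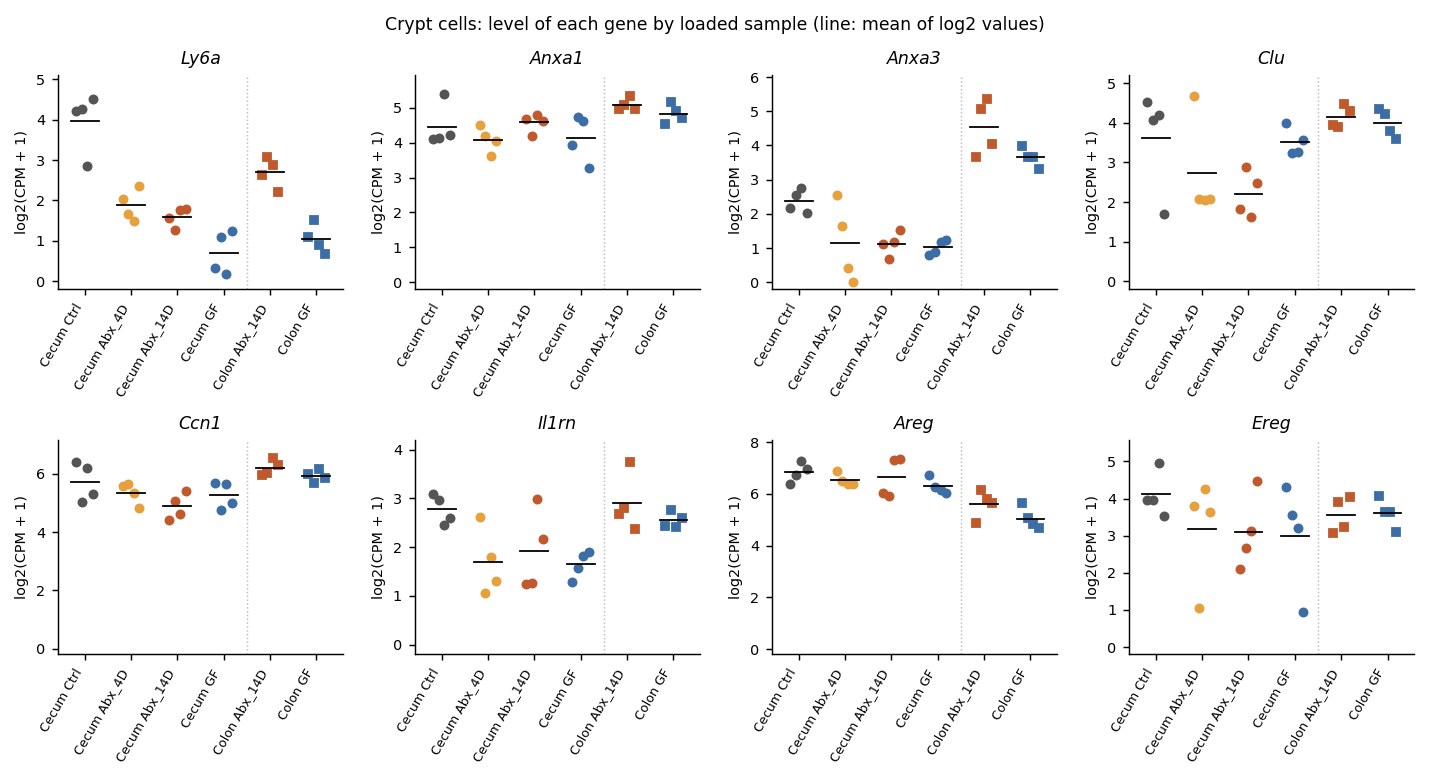
Crypt cells: log2(CPM + 1) of 8 genes (vertical axis) in each of 4 loaded samples per group (horizontal axis; circles cecum, squares colon, line the mean of the log2 values). Ly6a is highest in cecal Ctrl, Clu is low in cecal Abx_14D and in 3 of 4 Abx_4D samples, and Anxa3 is high in the colon.

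Whether the change from Ctrl differed between absorptive and crypt cells was tested in 1 fit over both classes, a contrast added after the data were seen. Anxa1 was the only one of the 8 genes called: its change was larger in absorptive cells by 2.80 ± 0.51 in Abx_4D (adjusted p = 0.004), 2.69 ± 0.46 in Abx_14D (adjusted p = 0.0013) and 1.75 ± 0.49 in GF (adjusted p = 0.039). Of 12102 genes, 1.23%, 2.54% and 4.35% were called in these contrasts. Ctrl crypt sample 3, with 41.4 CPM of Anxa1, weighed on all 3: without Ctrl 3 the differences were 2.07, 1.95 and 1.02 (adjusted p = 0.11, 0.061 and 0.39). The Abx_4D difference was also lost without Abx_4D 3 (2.44, adjusted p = 0.051), and the GF difference without Ctrl 2 (1.78, adjusted p = 0.058), without GF 3 (1.91, adjusted p = 0.05), without GF 4 (1.46, adjusted p = 0.11) and without the samples of high mitochondrial share (1.45, adjusted p = 0.13). For Ly6a the change was not called as different between the classes (adjusted p = 0.75, 0.26 and 0.47). Areg came nearest after Anxa1, with -1.20 ± 0.39 in GF (adjusted p = 0.087; -1.51, adjusted p = 0.048, without GF 3).

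**Figure D4:**
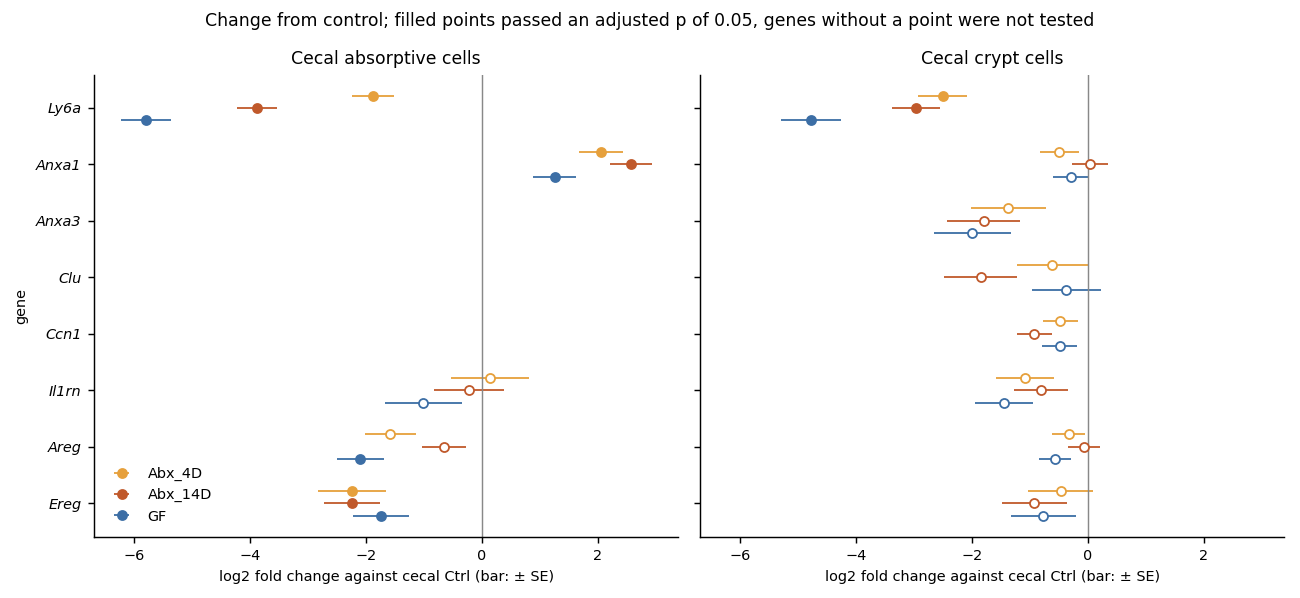
Log2 fold change against cecal Ctrl with its SE (horizontal axis) for 8 genes (vertical axis) in absorptive (left) and crypt cells (right), for Abx_4D, Abx_14D and GF. Filled points passed an adjusted p of 0.05: Ly6a lies left of 0 in both classes, and Anxa1 lies right of 0 in absorptive cells and near 0 in crypt cells.

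GF against Abx_14D sets the germ-free state beside antibiotic treatment. In cecal absorptive cells 3 of 5 tested genes were lower in GF, against 2.4% of all genes. Ly6a was lower by 1.91 ± 0.51 on the log2 scale (adjusted p = 0.048), Anxa1 by 1.32 ± 0.28 (adjusted p = 0.009) and Areg by 1.44 ± 0.37 (adjusted p = 0.037). Without the samples of high mitochondrial share, which removes 2 of 4 Abx_14D samples and 1 of 4 GF samples, none was called (-1.36, -0.85 and -0.68, adjusted p = 0.93, 0.72 and 0.94). With at least 10 cells per sample only Anxa1 was called (Ly6a adjusted p = 0.11, Areg 0.058), and the sample number as a block ended the Ly6a call (adjusted p = 0.054) and DESeq2 the Areg call (adjusted p = 0.051). Leaving out Abx_14D sample 3 alone also ended all 3 calls (-1.88, -1.17 and -1.04, adjusted p = 0.15, 0.064 and 0.26). The Ly6a call was lost without each of the other samples except Abx_14D 2 (-2.15 to -1.77, adjusted p = 0.054 to 0.17), and the Areg call without Abx_14D 4 or GF 1, 2 or 4 (-1.57 to -1.29, adjusted p = 0.068 to 0.13). In cecal crypt cells none of 8 genes was called, against 0.292% of all genes; 2 of the 8 had an unadjusted p under 0.05 (Ly6a and Clu). DESeq2 called none, and Clu was called with no filter on low counts (adjusted p = 0.0059).

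In the colon the same contrast was carried by Ly6a alone. Its absorptive levels were 101, 103, 207 and 66.4 CPM in Abx_14D and 20.3, 9.30 and 7.65 CPM in GF, and they did not overlap. Ly6a fell by 3.02 ± 0.43 (adjusted p = 0.0026). In colon crypt cells it stood at 5.23, 7.50, 6.38 and 3.59 CPM in Abx_14D and 1.12, 1.86, 0.863 and 0.588 in GF, a fall by 2.17 ± 0.33 (adjusted p = 0.0023). The shares of all genes called were 1.62% in absorptive and 1.02% in crypt cells. The interferon-induced sum in absorptive cells was 760 to 2377 CPM in Abx_14D and 171 to 272 in GF, and its part in the Ly6a result was not tested. Anxa1 stood at 86.2 ± 24.9 CPM (n = 4) and 84.9 ± 29.2 (n = 3) in colon absorptive cells, and Anxa3 at 63.9 ± 23.8 and 72.5 ± 4.44. In colon crypt cells Anxa3 stood at 11.7, 32.2, 39.95 and 15.4 CPM in Abx_14D and 14.7, 11.5, 11.8 and 9.01 in GF (-0.99 ± 0.32, adjusted p = 0.24; -1.27, adjusted p = 0.03, without Abx_14D sample 1). In Abx_14D sample 3, 1 cell held 56 of the 144 Anxa3 transcripts, and it was kept in both of these fits. Areg stood at 50.3 ± 17.2 and 33.2 ± 10.9 CPM in colon crypt cells of Abx_14D and GF (-0.56 ± 0.25, adjusted p = 0.4).

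Whether GF and Abx_14D differed by a different amount in the 2 tissues was tested as a contrast added after the data were seen. None of the genes was called, against 0.0112% of all genes in absorptive and 0.00786% in crypt cells. The values nearest the threshold in absorptive cells were Areg (2.00 ± 0.54, adjusted p = 0.25), Anxa3 (3.0 ± 0.82, adjusted p = 0.25) and Anxa1 (1.26 ± 0.39, adjusted p = 0.4), all higher in colon minus cecum. In crypt cells it was Clu, with -1.59 ± 0.40 (adjusted p = 0.39). Unadjusted p-values were under 0.05 for these 4 genes and for Ccn1 in crypt cells (-0.72 ± 0.31, adjusted p = 0.67), and DESeq2 called Areg (2.09, adjusted p = 0.033) and Clu (-1.66, adjusted p = 0.037). With no filter on low counts the absorptive differences of Areg (adjusted p = 3.2e-07), Anxa3 (adjusted p = 0.03) and Anxa1 (adjusted p = 0.036) and the crypt difference of Clu (adjusted p = 0.039) were called. The Areg difference was also called with the sample number as a block (2.25, adjusted p = 0.018).

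Colon against cecum within Abx_14D and within GF asks which of the genes differ between the tissues. The crypt class was not of the same make-up in both. Its median proliferating score in Abx_14D and GF was 0.524 and 0.320 in cecum against 0.183 and 0.202 in colon. The median stem score was 0.984 and 1.19 against 1.22 and 1.24. The part of this make-up in the crypt differences was not tested. Anxa3 differed in both conditions and both classes. In absorptive cells it stood at 80.7, 86.1, 53.7 and 35.3 CPM in colon Abx_14D against 1.38, 0.792, 3.20 and 2.87 in the cecum, a difference of 4.6 ± 0.37 (adjusted p = 7.1e-09). In GF it stood at 73.3, 67.7 and 76.5 CPM in the colon. The cecal GF samples held 2 transcripts of Anxa3 together, so the summed level was 252-fold higher in the colon, with a 95% counting interval of 68.8 to 2099. In crypt cells the colon was higher by 4.31 ± 0.41 in Abx_14D (adjusted p = 1.1e-07) and by 3.49 ± 0.45 in GF (adjusted p = 8.8e-06). Goblet cells, which were not tested, held 52.1 to 117 CPM of Anxa3 in the colon and 2.51 to 37.4 in cecal Abx_14D and GF.

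Ly6a was higher in colon than cecum in absorptive cells, by 4.22 ± 0.36 in Abx_14D (adjusted p = 1.7e-08) and 3.08 ± 0.57 in GF (adjusted p = 0.00064; 2.41, adjusted p = 0.052, without colon GF 1). In crypt cells it was higher by 1.47 ± 0.38 in Abx_14D (adjusted p = 0.0046) and was not called in GF (adjusted p = 0.19). Il1rn was likewise higher in colon absorptive cells, with 39.3, 25.2, 34.9 and 22.8 CPM against 5.52, 2.37, 9.06 and 7.16 in Abx_14D (2.17 ± 0.43, adjusted p = 0.00092). In GF it stood at 31.97, 22.6 and 28.1 CPM against 0, 10.6, 3.27 and 1.71 (2.86 ± 0.51, adjusted p = 0.00044). Its crypt differences of 0.99 ± 0.41 and 1.19 ± 0.45 were not called (adjusted p = 0.063 and 0.073), and without the samples of high mitochondrial share they were 2.27 and 1.26 (adjusted p = 0.002 and 0.027).

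Clu and Ccn1 were higher in colon than cecal crypt cells in Abx_14D, by 2.13 ± 0.30 (adjusted p = 1.4e-05) and 1.31 ± 0.22 (adjusted p = 0.00011), and the samples of the tissues did not overlap for either gene. In GF crypt cells Clu stood at 15.2 ± 3.83 CPM in the colon and 10.8 ± 3.04 in the cecum (adjusted p = 0.16). Ccn1 differed there by 0.59 ± 0.22 (adjusted p = 0.062; 0.72 without cecal GF 1, adjusted p = 0.033, and 0.73 without GF 3, adjusted p = 0.046). In GF absorptive cells Ccn1 was higher in the colon by 2.37 ± 0.74 (adjusted p = 0.041), from 21 and 11 transcripts in all, and the call was lost without the samples of high mitochondrial share (1.81, adjusted p = 0.11) and without any of cecal GF 1, 2 or 4 or colon GF 1 or 3 (1.79 to 2.44, adjusted p = 0.056 to 0.37). Anxa1 was higher in colon GF absorptive cells by 1.24 ± 0.30 (adjusted p = 0.0063; 1.11, adjusted p = 0.06, without colon GF 1), while its Abx_14D levels of 86.2 and 86.4 CPM were near one another. In crypt cells Anxa1 was not called, with differences of 0.51 ± 0.22 in Abx_14D (adjusted p = 0.079) and 0.57 ± 0.23 in GF (adjusted p = 0.086). Clu, under the filter in absorptive cells, stood at 13.4 ± 7.22 CPM in the 3 colon GF samples and 0.782 ± 0.556 in the 4 cecal ones, without overlap, and did not pass the filter on low counts. Without the samples of high mitochondrial share it did, and was called higher in the colon (3.67, adjusted p = 0.0067). Few cells carried the colon GF level of Clu. In sample 1, 5 of 53 cells held its 23 transcripts. In sample 2, 1 cell held 12 of 13 transcripts, and sample 3 had 2 transcripts in all.

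Areg was the one gene called lower in the colon, in 3 of 4 comparisons. In crypt cells it was lower by 1.16 ± 0.31 in Abx_14D (adjusted p = 0.0065) and by 1.23 ± 0.32 in GF (adjusted p = 0.0093), and in absorptive cells by 1.29 ± 0.37 in Abx_14D (adjusted p = 0.019). In GF absorptive cells it stood at 106 ± 30.2 CPM in the colon and 62.4 ± 27.2 in the cecum (adjusted p = 0.3), and it was called higher in the colon with no filter on low counts (adjusted p = 0.035) and with the sample number as a block (adjusted p = 0.024). Ereg, under the filter in absorptive cells, stood at 0.525 ± 1.05 against 3.42 ± 1.04 CPM in Abx_14D and 0.963 ± 0.842 against 5.0 ± 1.24 in GF, lower in the colon without overlap. In crypt cells of Abx_14D Ereg was not called, and without the samples of high mitochondrial share it was higher in the colon (1.36, adjusted p = 0.027). Without those samples both Abx_14D calls of Areg were lost (-0.32 and -0.40, adjusted p = 0.47 and 0.6). The absorptive call of Areg was also lost without cecal Abx_14D 3 (-0.88, adjusted p = 0.13), colon Abx_14D 1 (-1.25, adjusted p = 0.055) or colon Abx_14D 2 (-1.07, adjusted p = 0.056). In all, 3 of 6 tested genes were called higher and 1 lower in colon absorptive cells of Abx_14D and 5 of 6 higher in GF, against 15.7% and 11% of all genes. In crypt cells 4 of 8 were higher and 1 lower in Abx_14D, and 1 higher and 1 lower in GF, against 37.1% and 18.5%; the GF crypt count is near its background.

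The share of cells with a transcript was counted after each cell was thinned to 5000 transcripts, leaving out shallower cells. In cecal absorptive cells 32.4% of 244 Ctrl cells held Ly6a (exact 95% interval 26.5 to 38.6%), against 8.33% of 156 in Abx_4D, 3.66% of 519 in Abx_14D and 1.15% of 262 in GF. Unthinned shares were 52.7%, 16.0%, 7.30% and 2.51%. In colon tuft cells, as a class low in Ly6a, 0 of 45 thinned Abx_14D cells held a transcript, which allows a share of up to 6.67% (exact 95% upper limit 7.87%), and unthinned 2.56% of 78 did. For Anxa1 the shares, group by group in that order, were 4.92%, 27.6%, 29.3% and 14.5%, and unthinned 15.3%, 39.2%, 51.9% and 25.6%. Areg was found in 42.2%, 34.6%, 42.8% and 21.0% of the same cells. Cells with at least 3 of the 9 genes made up 4.10% of Ctrl, 3.21% of Abx_4D, 2.50% of Abx_14D and 0.763% of GF cecal absorptive cells, and 12.6% of Abx_14D and 8.65% of GF colon absorptive cells. Between 31 and 97 absorptive cells per group were too shallow to be thinned, and these shares of pooled cells were not tested.

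By pattern across the 14 cecal absorptive samples, the genes most like Ly6a among 5945 genes with a mean of at least 20 CPM were Zc3h12a, Regnase-1, an RNase that degrades inflammatory transcripts (Pearson r = 0.96), H2-Ab1, a chain of MHC class II (r = 0.95), and Igsf9b (r = 0.94). Most like Anxa1 were the lipoprotein receptor Vldlr (r = 0.92), Ube2e2 (r = 0.91) and Fnip2 (r = 0.89). Most like Areg were Slc25a25, BC016579 and the zinc transporter Slc39a4 (r = 0.89, 0.89 and 0.88). Across the 16 cecal crypt samples, Ccn1 was most like Fhl2 (r = 0.83), the growth factor Vegfa (r = 0.83) and Sinhcaf (r = 0.81), and Areg most like Smad7 (r = 0.85), Klf6 (r = 0.79) and Sat1 (r = 0.79). Crypt Anxa1 had no pattern as close, the nearest being Hsd3b3, Chaserr and Ehhadh (r = 0.70, 0.66 and 0.64). These r are over samples of log2(CPM + 1), share group differences and depth, and carry no test.

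Genes of the same pathways give the setting, read beside the shares of all genes called above: 2.85%, 6.43% and 11.5% in cecal absorptive and 0.643%, 2.76% and 4.95% in cecal crypt cells. Of 3 tested relatives of Ly6a in cecal absorptive cells, Ly6e, a surface protein of the same family, fell with it: by 1.65 ± 0.42 in Abx_14D (adjusted p = 0.018) and 3.70 ± 0.52 in GF (adjusted p = 3.1e-05). In GF 2 of the 3 fell, in Abx_14D 1 and in Abx_4D none. In the colon Ly6e fell in GF against Abx_14D by 3.32 ± 0.30 in absorptive and 1.25 ± 0.16 in crypt cells. Among 6 tested annexins and formyl peptide receptors, 3 rose with Anxa1 in cecal absorptive cells of Abx_14D: Anxa8 by 4.05 ± 0.87, Anxa7 by 1.00 and Anxa2 by 0.90. In GF Anxa7 rose by 0.86 and Anxa5 fell by 3.44. The list median was 0.58, 0.69 and 0.47 in Abx_4D, Abx_14D and GF against Ctrl.

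Other fetal-like and repair genes were lower where they were called in cecal absorptive cells: 2 of 10 tested for Abx_4D, 1 for Abx_14D and 4 for GF, with none higher; the Abx_14D count is near its background. Plaur, the urokinase receptor, fell by 2.64 ± 0.57 in Abx_4D and 3.97 ± 0.54 in GF, from 59.1 ± 35.0 CPM in Ctrl to 11.2 ± 8.21 and 3.64 ± 1.13. The keratin Krt18 fell by 2.26 ± 0.36 in Abx_4D and 1.53 ± 0.29 in Abx_14D. In crypt cells 1 of 10 was lower in Abx_14D (the alarmin Il33, by 2.91 ± 0.64), 1 was higher in GF and none was called in Abx_4D. The interleukin-1 family gene Il18 fell in absorptive cells of all 3 groups (-3.09 ± 0.44, -2.93 ± 0.37 and -1.74 ± 0.35), the only call among 5 tested genes of its list. Between the tissues, 2 of 10 fetal-like and repair genes were higher and 5 lower in colon absorptive cells of Abx_14D (median -0.35 beside 0.15 over all genes). In GF 3 were higher and 1 lower (median 0.59 beside 0.05). In colon crypt cells 6 and 4 of 12 were higher in Abx_14D and GF, and none lower. The shares of all genes called were 15.7% and 11% in absorptive and 37.1% and 18.5% in crypt cells.

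Among other YAP and TEAD targets, Myof, a membrane-repair protein, fell in cecal absorptive cells by 4.27 ± 0.84, 2.43 ± 0.56 and 2.20 ± 0.56 in Abx_4D, Abx_14D and GF. In all, 1 of 9 was lower in Abx_4D, 2 lower and 1 higher in Abx_14D and 2 lower in GF. Of the Hippo genes, Wwtr1, which encodes the YAP partner TAZ, fell in cecal crypt cells in all 3 groups, from 10.6 ± 4.43 CPM to 3.03 ± 0.464, 1.71 ± 1.04 and 1.06 ± 0.430 (adjusted p = 0.043, 0.00051 and 9e-05). It was the only call among 15 tested Hippo genes in Abx_4D and Abx_14D, and in GF the factor Tead2 was called lower with it. Colon crypt cells of Abx_14D had 10 of 15 tested YAP and TEAD targets higher than cecal crypt cells and none lower, with a list median of 1.18 beside -0.06 over all genes; in GF 6 of 15 were higher and none lower. Of all 12718 genes 1981 were called higher in Abx_14D and 1206 in GF. The part of the lower proliferating score of colon crypt cells in these counts was not tested. In absorptive cells the list went both ways in Abx_14D, with 4 of 11 higher, 3 lower and a median of -0.12 beside 0.15 for all genes, and in GF 4 were higher and none lower, with a median of 0.79 beside 0.05. In crypt cells of Abx_14D Rbms3 (3.56 ± 0.21) and Nt5e (2.59 ± 0.46) led, and among the Hippo genes Amotl1 was higher by 5.71 ± 0.26 in Abx_14D and 5.41 ± 0.27 in GF.

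Of the other EGF receptor ligands, receptors and feedback genes, 10 were tested in cecal absorptive cells. None was called in Abx_4D or Abx_14D and 1, the ligand Hbegf, fell in GF (by 1.07). In GF against Abx_14D 2 of the 10 were lower, beside 2.4% of all genes. In cecal crypt cells 1 of 12 was higher in Abx_4D and 1 in GF, and none was called in Abx_14D. Immediate early and dissociation genes were lower in cecal absorptive cells of GF in 11 of 16 cases, with a median of -1.03, and in 0 and 2 of 16 in Abx_4D and Abx_14D. The interferon-induced genes were lower in all 16 of 16 in cecal GF absorptive cells (median -4.06), while 2 were higher in Abx_4D and 1 higher and 2 lower in Abx_14D. In cecal crypt cells 0, 3 and 7 of 10 were lower.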

How the data were processed

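The authors deposited whole-number transcript counts per gene and cell from 8 sublibraries of a split-pool single-cell assay, each holding cells of all conditions, with tables that name each cell's loaded sample and each gene. Per the submitters' processing notes the genome build was mm39 and Seurat was used; the aligner is not given in the sources used here. Cells with at least 500 transcripts were kept, doublets were not removed, and 462 well combinations occurred in more than 1 sublibrary. Classes came from marker scores (log of counts scaled to 10000) above fixed minima, 0.8 for absorptive and 0.6 and 0.5 for stem and proliferating scores (crypt). Counts were summed per loaded sample and class (at least 20 cells) and tested over all genes in R 4.3.3 by the quasi-likelihood method of edgeR 4.0.16, scaled by library size and filtered with filterByExpr, at a Benjamini-Hochberg threshold of 0.05, after the scripts were checked on simulated data. DESeq2 1.42.0 was an alternative. Shares of cells used 5000 transcripts per cell, with exact intervals at 95% and a floor of 3 counts; intervals cover counting error only. Total counts per loaded sample in the groups compared ran from 1821737 to 30127065. The 9 genes, the gene lists and the markers were chosen with earlier results of these data known. Other genes are named when they passed the test with 1 of the 3 largest changes of a list, or among the 3 nearest patterns. Fold changes are printed for genes of the 9 with an unadjusted p under 0.05 or a call under an alternative. Alternatives were TMM, no count filter, DESeq2, 1000 transcripts per cell, a stricter gate, 10 cells per sample, leaving out samples with a median mitochondrial share over 0.5%, a block on sample number, and leaving out each sample. Colon Ctrl, with 50 cells, and colon Abx_4D were not compared.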

Additional observations from a re-analysis of the deposited data

Results flagged for a closer look

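Clu stood at 24.7 CPM in crypt cells of cecal Abx_4D sample 1, far from the other 3 samples of its group (3.14 to 3.23 CPM). Anxa1 stood at 41.4 CPM in crypt cells of cecal Ctrl sample 3, far from the other 3 (16.1 to 17.5 CPM). Groups of 4 samples were examined for such gaps 68 times, with 2 found, and chance gives about 1 in 20. The change of Anxa1 from Ctrl differed between absorptive and crypt cells by 2.80 in Abx_4D, 2.69 in Abx_14D and 1.75 in GF on the log2 scale, by the test of the difference itself (edgeR's quasi-likelihood test, adjusted p = 0.004, 0.0013 and 0.039); Ctrl sample 3 enters all 3, and the values without it were 2.07, 1.95 and 1.02 (adjusted p = 0.11, 0.061 and 0.39).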

How the results depend on the processing

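The 37 calls of the 9 genes kept their direction in all 280 fits under other settings and all 273 fits without 1 sample, with 25 and 44 of these fits past the threshold no longer. Of the number of the 9 genes called, GF against Ctrl in cecal absorptive cells gave 2 in place of 4 without samples over 0.5% mitochondrial. GF against Abx_14D there gave 1 with at least 10 cells per sample and 0 without those samples, in place of 3. With no filter on low counts the number was 2 in place of 1 for GF against Abx_14D in colon absorptive and in colon crypt cells. In cecal crypt cells it was 3 in place of 1 for Abx_14D, 4 in place of 1 for GF against Ctrl and 1 in place of 0 for GF against Abx_14D; Abx_14D gave 2 with DESeq2 and 2 without the samples of high mitochondrial share. Colon against cecum in GF crypt cells gave 5 with no filter, 4 with DESeq2 and 5 with the sample number as replicate block, in place of 2. With no filter Anxa3 in cecal absorptive GF against Ctrl (adjusted p = 0.0019) and Clu in colon absorptive GF against Abx_14D (adjusted p = 0.023), untested otherwise, were also called. The causes were not tested. Without 1 sample each, the number ranged from 2 to 4 (GF against Ctrl) and 0 to 3 (GF against Abx_14D) in cecal absorptive cells, 2 to 5 for colon against cecum in GF absorptive cells, and 1 to 2 for Abx_4D and for Abx_14D in cecal crypt and for GF in colon crypt cells.

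Gene counts over the whole table moved more. With no filter they were 521 (main 270) for Abx_4D and 420 (227) for GF against Abx_14D in cecal absorptive, 350 (125) in colon absorptive, 285 (77), 633 (330), 980 and 311 (35) in cecal crypt, in the order of the report, and 287 (130) in colon crypt cells. DESeq2 gave 209, 529 and 95 for Abx_4D, Abx_14D and GF against Abx_14D in cecal crypt and 257 in colon crypt cells. Without the samples of high mitochondrial share the counts were 219 (609) and 82 (227) for Abx_14D and GF against Abx_14D in cecal absorptive, 117 (330) and 15 (35) in cecal crypt, and 609 (1403) and 2977 (4723) for colon against cecum in Abx_14D. Tissue differences of the GF contrast gave 0 to 134 genes in absorptive and 0 to 20 in crypt cells, in place of 1 each. Class differences gave 357 (149) and 518 (307) with no filter, and 92 (307) without those samples for Abx_14D.

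Sample numbers were not taken to pair the samples, since not every same-numbered pair of deviations correlated over 0.1: 5 of 18 did in cecal absorptive, 1 of 3 in colon absorptive, 17 of 24 in cecal crypt and 3 of 4 in colon crypt cells, against 11 of 55, 0 of 9, 22 of 72 and 1 of 12 pairs of other numbers. In crypt cells same-numbered samples thus deviated together more often (mean r 0.15 and 0.17 against -0.05 and -0.06), a hint from the data and not from the labels. With the replicate block the counts moved to 212 (125) in colon absorptive and 120 (77) and 62 (35) for Abx_4D and GF against Abx_14D in cecal crypt cells. The block ended the calls of Ereg in Abx_4D (adjusted p = 0.092), Ly6a in GF against Abx_14D (adjusted p = 0.054) and Ccn1 in colon against cecum GF (adjusted p = 0.055). It added Anxa1 and Il1rn in colon against cecum crypt cells of both conditions, Ccn1 there in GF, Areg in colon against cecum GF absorptive cells, and the tissue difference of Areg. Anxa1 in GF against Ctrl had adjusted p = 0.051 with TMM and 0.053 with at least 10 cells. Depth is low for several genes: cecal absorptive cells held 39 transcripts of Clu, 63 of Anxa3 and 0 of Ccn2 in all.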

Other observations

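Colon Abx_4D was left out of the comparisons, and its sample 1 gave 649 crypt cells. In these Clu stood at 31.2 CPM (95% Poisson interval 26.6 to 36.4), Ccn1 at 91.9 CPM (83.9 to 100.5) and Ly6a at 11.9 CPM (9.11 to 15.2). The sample has no replicate of like depth, and the intervals cover counting error only.

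Cells that met no gate also held these transcripts. In the 1621 colon cells of no class, Anxa3 stood at 86.9 CPM (82.9 to 91.0), Anxa1 at 56.4 CPM (53.2 to 59.7) and Il1rn at 26.7 CPM (24.5 to 29.0), and in the 1481 cecal cells of no class Areg stood at 136 CPM (130 to 141). In thinned cecal absorptive cells of Abx_14D, Areg was found in 54.6% of 152 cells with Anxa1 and in 37.9% of 367 cells without it. The same shares were 41.7% and 42.2% in cecal Ctrl and 23.7% and 20.5% in cecal GF. In the colon they were 32.1% and 19.4% in Abx_14D and 18.8% and 30.6% in GF. These values carry no test, and cells were pooled over samples, so differences between samples enter them.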
